A study of Mus musculus with 28 samples.

Results

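C/D box small nucleolar RNAs (Snord genes in the mouse) were followed in blood of ageing mice, in the pellet enriched for extracellular vesicles (EV) and in the plasma left after those vesicles had been spun out (plasma). The members are all rows of the table annotated as snoRNA whose gene symbol starts with Snord, 88 of 80668 RNA rows and of 1462 snoRNA rows. They carry 83 symbols. The 28 small RNA libraries came from 14 female wild-type C57BL/6N mice aged 2 months (n = 3), 6 months (n = 4), 8 months (n = 3), 12 months (n = 2) and 18 months (n = 2), each giving 1 EV and 1 plasma library by their labels. The plasma titles of 2-month replicates 2 and 3 carry the same code, which names both mice, so which of these libraries belongs to which mouse is uncertain. No mouse was treated beyond the ketamine and xylazine anaesthesia at bleeding, the labels say that the blood of different animals was not pooled, and platelets and cell debris were removed from the plasma by a first spin. An ultracentrifugation pellet is enriched for vesicles but is not a pure vesicle preparation, and with 2 mice at 12 and at 18 months the ages could be compared only as a trend over all 14 mice.

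C/D box snoRNAs are short RNAs of the nucleolus that are mostly cut from introns of host genes after splicing. They are named after 2 sequence motifs, the C box near the 5′ end and the D box near the 3′ end, which bind fibrillarin and the other core proteins. The stretch just upstream of a D box pairs with a target RNA and guides 2′-O-methylation there, mainly on ribosomal RNA. A few members, such as Snord118 (U8), Snord22 (U22), Snord13 (U13) and the Snord14 family (U14), act in cutting and folding the ribosomal RNA precursor. Outside cells, snoRNAs and their fragments are found in vesicles and in plasma.

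In the annotation used (GENCODE M21, GRCm38), 84 of the 88 rows were found by transcript ID. Of these, 80 lay within an intron of a host gene, 21 had a ribosomal protein gene as host, and 24 had only noncoding hosts. The transcripts were 64 to 238 nt long (median 79.5 nt). The letters of the C box core, TGATGA, occurred in 60 of the 84 transcripts (71.4%) against 0 of 42 H/ACA (Snora) transcripts, and the letters of the D box, CTGA, occurred in 84 of 84 (100%) against 54.8% of the Snora transcripts. Only the transcript strand was searched, the string CTGATGA holds both motifs, and a match is a match of letters and not a mapped protein site. The sequences below are those on which the fraction comparison turned. Snord50b (chr9:88521797-88521868, minus strand) and Snord50a (chr9:88521529-88521600, minus strand) lie in introns of Snhg5. Snord68 (chr8:123103038-123103123, plus strand) lies in Rpl13, Snord61 (chrX:57391449-57391519, minus strand) in Rbmx, and Snord99 (chr4:132310691-132310764, plus strand) in Snhg12. Snord14c (chr9:40803583-40803668) and Snord14d (chr9:40803995-40804080), both on the plus strand, lie in Hspa8. Snord80 (chr1:161037601-161037681, plus strand) lies in Gas5 and Snord22 (chr19:8725866-8725991, plus strand) in Snhg1, whereas Snord118 (chr11:69073427-69073561, plus strand) has its own gene. Capitals mark the first TGATGA and the last CTGA in each transcript, read 5′ to 3′ on the gene strand. The first 7 sequences were higher in EV and the last 3 did not pass the test.
Snord50b: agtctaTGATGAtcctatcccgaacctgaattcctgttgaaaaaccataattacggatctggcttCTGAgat
Snord50a: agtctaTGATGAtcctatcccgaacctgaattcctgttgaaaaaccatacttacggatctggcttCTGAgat
Snord68: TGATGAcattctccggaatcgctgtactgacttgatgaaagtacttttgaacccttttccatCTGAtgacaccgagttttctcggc
Snord61: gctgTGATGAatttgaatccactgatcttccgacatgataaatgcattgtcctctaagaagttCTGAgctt
Snord99: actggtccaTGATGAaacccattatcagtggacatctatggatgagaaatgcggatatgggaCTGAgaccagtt
Snord14c: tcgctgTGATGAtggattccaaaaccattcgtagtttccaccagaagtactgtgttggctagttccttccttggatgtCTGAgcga
Snord14d: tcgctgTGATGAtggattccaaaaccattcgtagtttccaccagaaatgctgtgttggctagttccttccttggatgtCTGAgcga
Snord80: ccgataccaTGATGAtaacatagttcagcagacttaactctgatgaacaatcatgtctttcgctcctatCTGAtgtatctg
Snord22: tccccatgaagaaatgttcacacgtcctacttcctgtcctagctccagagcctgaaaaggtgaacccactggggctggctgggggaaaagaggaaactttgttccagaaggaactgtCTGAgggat
Snord118: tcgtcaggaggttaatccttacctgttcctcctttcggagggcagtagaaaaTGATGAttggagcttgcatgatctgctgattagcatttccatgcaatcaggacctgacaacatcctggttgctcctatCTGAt
Snord50a and Snord50b differ at 1 base of 72 and Snord14c and Snord14d at 2 of 86, and within each pair the counts were nearly equal in every library, so each pair is best read as a single measurement. The rows of Snord80 (2 rows), Snord85 (2 rows) and Snord7 (4 rows) held identical counts and are likewise single measurements. Every 18-nt stretch of Snord50a and Snord50b also occurs in another row. Besides each other, these rows include the snoRNAs Gm23017, Gm24463 and Gm26135 and the lncRNA 9430037G07Rik. All stretches of Snord99 also occur in Snhg12, 40.4% of those of Snord22 in Snhg1 and 40.7% of those of Snord118 in Gm24208. How reads matching several rows were counted is not stated, so their origin is uncertain.

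C/D box snoRNAs were a very small share of these libraries. The table held 4764338 to 52753818 counts per EV library and 928651 to 23905651 per plasma library, and the Snord rows took between 0.000887% and 0.0110% of them. This came to 10861 Snord counts over all EV libraries and 3171 over all plasma libraries, and a library detected between 17 and 76 of the 88 rows. A count of 0 allowed a level of up to 0.217 to 0.651 RPM (the unit of the deposited table, in which each library's counts were divided by a number that did not follow its total and whose meaning was not stated) in an EV library and up to 0.341 to 5.11 RPM in a plasma library (3 counts per library, counting error only). The highest of these plasma limits belongs to the shallowest library, 6-month replicate 1.

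The summed Snord level was higher in EV than in plasma in 12 of 14 mice. The EV libraries held 17.3 RPM at the lowest, 50.4 RPM at the median and 419 RPM at the highest, and the plasma libraries 20.2, 33.6 and 93.4 RPM. The ranges overlap, and both highest values belong to 12-month replicate 2. As a share of all counts its EV library was also the highest, but by less (0.0110%, the next 0.00630%), and its plasma library (0.00324%) was below that of 8-month replicate 2 (0.00396%). Its EV library alone held 5804 Snord counts, 53.4% of all Snord counts in EV, and without that mouse the mean level was 47.9 ± 20.7 RPM (SD, n = 13) in EV and 33.2 ± 8.74 RPM in plasma. The median log2 ratio of EV to plasma within a mouse was 0.40, against a standard deviation of 0.864 over mice, so on this scale the summed difference was smaller than the spread between mice. The 2 mice with more in plasma were 6-month replicate 1 (17.3 RPM in EV, 44.3 RPM in plasma) and 8-month replicate 3 (21.4 and 25.1 RPM).

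**Figure D1:**
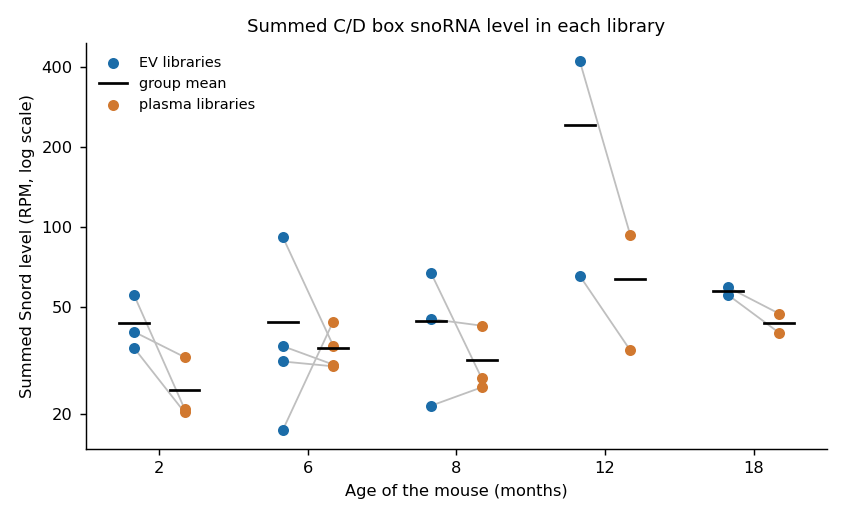
Summed level of the 88 Snord rows (RPM, log scale) in each EV (blue) and plasma (orange) library by age of the mouse in months, with lines joining the libraries of a mouse and bars at group means. The EV library of 12-month replicate 2 stands at 419 RPM, above all others, which lie between 17.3 and 92.1 RPM.

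The EV library of 12-month replicate 2 stood apart from the rest. It was the deepest library and also had the highest summed levels of H/ACA snoRNAs (1463 RPM, the next EV library 699 RPM) and scaRNAs (78.3 RPM, the next 54.0 RPM). The 5 red cell miRNAs listed as markers (miR-451a, both miR-144 arms, miR-486a-5p and miR-486b-5p) were all detected in both fractions and summed to 512 to 4268 RPM in EV, highest in this library, and to 687 to 3170 RPM in plasma, where this mouse was second at 2787 RPM. The 2 lymphocyte miRNAs were also highest in this mouse in both fractions (223 RPM in EV, 159 RPM in plasma), and the 3 platelet and myeloid miRNAs were second highest in both (888 and 546 RPM). The 3 liver miRNAs (128 RPM in EV, rank 4 of 14) and the 3 skeletal muscle miRNAs (4.55 RPM, rank 5 of 14) were not at their highest there. The sum of all miRNAs was also highest in this mouse, at 14702 RPM in EV (the next 11511) and 9968 RPM in plasma (the next 9128). The markers were not tested against this sum. The part of blood cell RNA in the Snord levels of this mouse was not tested. In bulk plasma, fewer particles or cells of a type and less RNA in each cannot be told apart.

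The excess in this library was uneven among the members. Of the 36 distinct members that reached 1 RPM in over 10% of EV libraries, 31 were highest in it, by 1.03 to 10.3 times the next library (median 4.04). Snord49a, a guide for 28S ribosomal RNA, stood at 29.3 RPM there and at no more than 3.80 RPM in any other EV library. Snord21, from an intron of Rpl5, stood at 29.2 RPM against at most 4.25 RPM, and Snord100, from Rps12, at 19.5 RPM against at most 1.90 RPM. The remaining 5 were within the range of the other EV libraries. They were Snord15a (3.03 RPM, the others up to 4.24 RPM), Snord80 (5.13 against 5.91 RPM), Snord12 (3.10 against 4.69 RPM), Snord14a (3.68 against 3.79 RPM) and Snord14e (2.89 against 4.13 RPM). In plasma of the same mouse, 7 of 24 distinct members were at their highest.

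Per length, Snord87 was the most abundant member in both fractions, at a median of 4.47 RPM per 100 nt in EV and 2.98 in plasma. In EV it was followed by Snord14c (2.42) and Snord14d (2.36), and in plasma by Snord80 (2.90 for its 77 nt transcript), with Snord14c and Snord14d at 1.26 there. Snord87 is encoded in Snhg6. It ranged from 0.336 through 3.89 (median) to 6.57 RPM in EV and from 1.14 through 2.59 to 5.11 RPM in plasma, and was counted in all 28 libraries. The 10 most abundant of the distinct members held 42.3% of Snord counts in EV and 49.9% in plasma. At the other end, 6 rows in EV and 10 in plasma had 3 counts or fewer over all 14 libraries. Among these were the brain-enriched Snord116 copies of the imprinted Snrpn-Ube3a locus, Snord116l9 and Snord116l12 with 1 count each in EV and 0 in plasma, and Snord116l14 with 2 and 1.

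Comparing the fractions, 25 Snord rows were higher in EV and 0 were higher in plasma among the 40 that could be tested, those reaching 1 RPM in over 10% of the EV or of the plasma libraries. The 40 rows hold 36 separate measurements. Snord50a with Snord50b, Snord14c with Snord14d, and the 2 rows each of Snord80 and Snord85 are single measurements. All of these but Snord80 are among the 25 as 2 rows each. The test was edgeR's quasi-likelihood test, and p-values were adjusted by Benjamini and Hochberg's method over the 22323 RNA rows tested. The fit held age in months and fraction but no term for the mouse. Its SE and p therefore treat the 2 libraries of a mouse as independent, and a block for the mouse was an alternative. Numbers of mice in which a row was higher compare the deposited RPM values. The log2 differences instead use the scaling of the main fit (TMM), so the 2 measures can point different ways. Over all rows tested, 10.0% were higher in EV and 7.08% higher in plasma. The median log2 difference was 1.57 over the 40 rows and -0.02 over all rows. Of the 40 rows, 15 passed the filter in EV alone and so had to be high there, and 13 of these 15 were among the rows called. Among the 25 rows that passed in plasma, 12 were higher in EV. A further 48 Snord rows were not tested. With no filter 31 of all 88 were higher in EV and 0 in plasma, against 2418 and 1855 of 80435 rows. The calls depended on how libraries were scaled. With the scaling of the deposited RPM table the median of all rows moved to -0.45, 16 Snord rows were higher in EV and 0 in plasma, and 18.8% of all calls rather than 58.6% pointed to EV. With scaling factors from the miRNAs alone the median of all rows was -0.66, 13 Snord rows were higher in EV and 1, Snord70, was higher in plasma, and 11.5% of all calls pointed to EV. Of the 22323 rows, 1010 were higher in EV under the RPM scaling and 768 under the miRNA scaling. All 25 rows called at first kept a positive difference under both scalings, with Snord15a at 0.07 under the miRNA scaling. They had been chosen for positive differences in these same libraries, of at least 0.76, so the kept sign is no separate test.

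Snord50a and Snord50b had the smallest p. Both passed the filter through EV alone and so were selected for being high there. Snord50b was counted in all 14 EV libraries, at 0.140 RPM at the lowest, 1.21 RPM at the median and 20.7 RPM at the highest, and in 7 of 14 plasma libraries, at no more than 0.724 RPM. Its EV level was above its plasma level in 13 of 14 mice, and the ranges overlap below 0.724 RPM. The log2 difference was 4.16 ± 0.75 (SE, 28 libraries of 14 mice, edgeR adjusted p = 0.000165). It was 3.58 without 12-month replicate 2, and 3.45 and 3.11 with the RPM and the miRNA scaling.

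Snord68, Snord61 and Snord99 followed in order of p. Snord68 and Snord99, unlike Snord61, passed the filter through EV alone. Other rows had larger differences with larger p, such as Snord49b, also passed through EV alone (3.09 ± 0.77, log2, SE; edgeR adjusted p = 0.00429, and 2.62, adjusted p = 0.0134, without 12-month replicate 2). Snord68, a guide RNA from an intron of Rpl13 often used as a reference in miRNA qPCR, held 0.235, 1.04 and 11.8 RPM in EV (lowest, median, highest) and 0, 0.289 and 0.844 RPM in plasma. It was higher in EV in 12 of 14 mice, by 2.86 ± 0.62 (log2, SE; edgeR adjusted p = 0.00131). Snord61, from Rbmx, held 0.199, 0.910 and 13.2 RPM in EV and 0, 0.233 and 1.70 RPM in plasma, where the highest value is a single read in the shallowest library. It was higher in EV in 12 of 14 mice, by 2.68 ± 0.59 (log2, SE; edgeR adjusted p = 0.00158). Snord99, from Snhg12, was the single called row that was higher in EV in all 14 mice, at 0.279, 0.892 and 9.53 RPM against 0, 0.174 and 1.45 RPM. Its log2 difference was 2.54 ± 0.60 (SE; edgeR adjusted p = 0.00272). Without 12-month replicate 2 the 3 log2 differences were 2.17 for Snord68, 1.99 for Snord61 and 2.18 for Snord99, and all 3 passed the test under the RPM and the miRNA scaling.

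**Figure D2:**
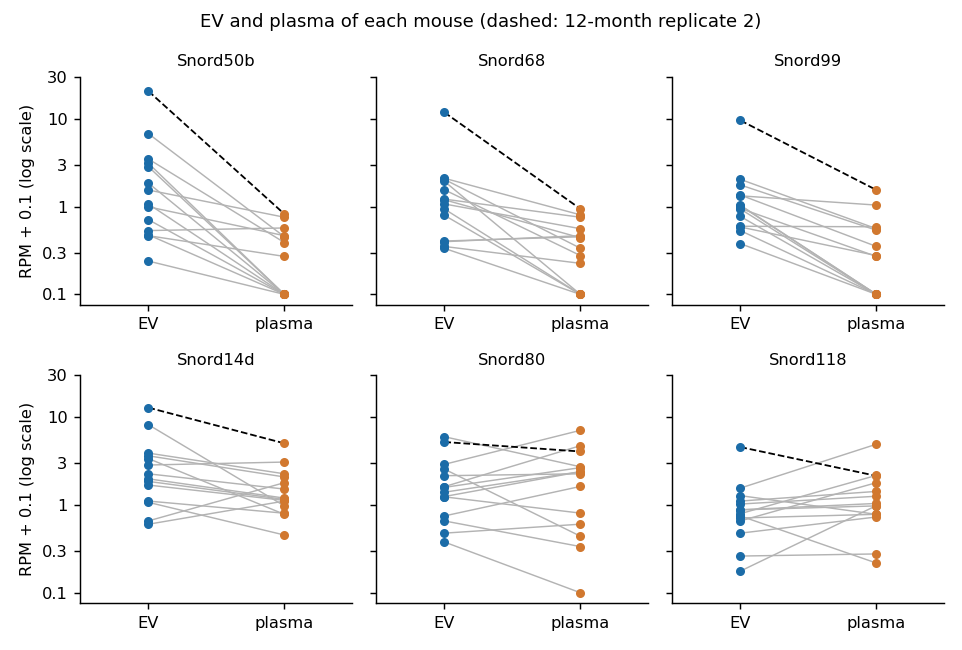
Level of 6 Snord RNAs (RPM plus 0.1, log scale) in the EV (blue) and plasma (orange) library of each mouse, lines joining the libraries of a mouse and dashed for 12-month replicate 2. Snord50b, Snord68 and Snord99 fall from EV to plasma in 12 to 14 of the 14 mice, and Snord80 and Snord118 do not, being higher in plasma in 8 and 11.

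Other members leaned on the single library. Snord85 differed by 4.15 ± 1.04 (log2, SE; edgeR adjusted p = 0.0047), but 82.4% of its EV counts came from 12-month replicate 2, its EV median was 0.236 RPM and it was counted in 4 of 14 plasma libraries. Without that mouse its log2 difference was 2.49 (edgeR adjusted p = 0.0491). Both Snord85 and Snord49a passed the filter through EV alone and so were selected for being high there. Snord49a fell from 3.91 to 2.13 on the log2 scale (edgeR adjusted p = 0.0033 with the mouse and 0.0334 without it). Snord21 lost its call, its log2 difference going from 2.15 (edgeR adjusted p = 0.0221) to 0.99 (adjusted p = 0.145). Of the 25 rows called, 22 could be tested without this mouse and 19 were still higher in EV. The Snord14c, Snord14d and Snord14e rows kept their calls in all fits that left out a single mouse. Snord14d ranged over 0.504, 2.03 and 12.8 RPM in EV and 0.355, 1.08 and 4.95 RPM in plasma, was higher in EV in 11 of 14 mice, and differed by 1.56 ± 0.38 (log2, SE; edgeR adjusted p = 0.00376) with all mice and by 1.39 (edgeR adjusted p = 0.000374) without 12-month replicate 2. Snord87 and Snord15a differed by 0.97 ± 0.28 and 0.76 ± 0.24 (log2, SE; edgeR adjusted p = 0.0138 and 0.0233), but neither passed under the RPM scaling, where they stood at 0.55 and 0.33. Snord14d and Snord14c lost their calls under the miRNA scaling (both 0.70 on the log2 scale, edgeR adjusted p = 0.0801 and 0.0818), and Snord14e under the RPM and the miRNA scaling (0.98 and 0.61, edgeR adjusted p = 0.112 and 0.234).

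Members that did not pass included some of the most abundant. Snord80, a 28S guide in Gas5, held 0.279, 1.40 and 5.91 RPM in EV and 0, 2.24 and 7.01 RPM in plasma and was higher in plasma in 8 of 14 mice. Its log2 difference of 0.32 ± 0.40 (SE; edgeR adjusted p = 0.667) turned to -0.16 under the RPM scaling. Snord118 (U8) held 0.0765, 0.739 and 4.48 RPM in EV and 0.118, 0.914 and 4.84 RPM in plasma. By RPM it was higher in plasma in 11 of 14 mice. Its log2 difference of 0.29 ± 0.44 (SE, edgeR adjusted p = 0.744) was -0.28 under the RPM scaling and -0.19 without 12-month replicate 2. Snord22 (U22) differed by 0.18 ± 0.44 (log2, SE; edgeR adjusted p = 0.865). Snord70, from an intron of Nop58, was the single tested member with a value below 0. It was counted in 12 of 14 plasma libraries and 5 of 14 EV libraries, but with 21 and 9 counts in all, and its log2 difference of -1.23 ± 0.59 (SE; edgeR adjusted p = 0.168) passed only with the miRNA scaling (-2.02, adjusted p = 0.0163) and without 2-month replicate 1 (-1.91, adjusted p = 0.0228).

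**Figure D3:**
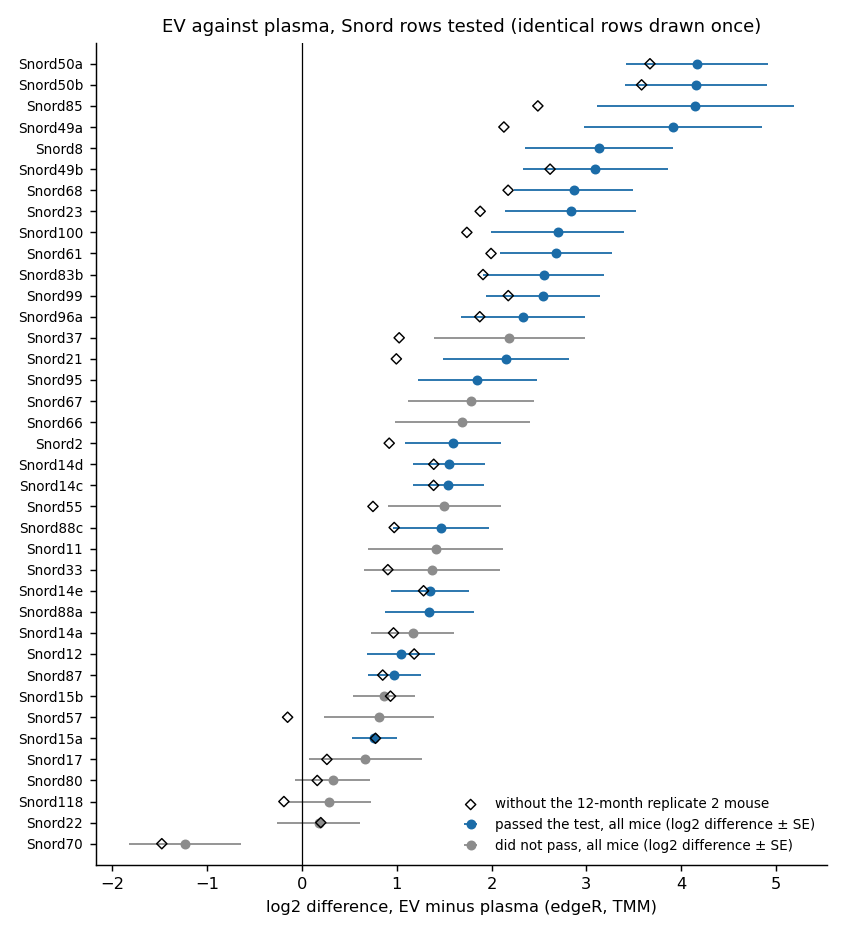
Log2 difference between EV and plasma with its SE (edgeR, TMM scaling, 14 mice) for the tested Snord rows, blue where the adjusted p was under 0.05 and grey where not, and open diamonds for the value without 12-month replicate 2 where that row could be tested. Called rows run from 0.76 to 4.17, and most diamonds lie to the left of their circles.

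By function, with values as log2 differences between EV and plasma and their SE, the RNAs for cutting the ribosomal RNA precursor were split. Of the 10 symbols listed, 7 were in the table and 6 were tested, and 3 of the 6 (Snord14c, Snord14d and Snord14e) were higher in EV with the main scaling. Snord14a (1.17 ± 0.44, edgeR adjusted p = 0.0659, and 1.01, adjusted p = 0.0242, with the mouse as a block), Snord22 and Snord118 did not pass, and Snord13 was not tested, with 21 counts in EV and 11 in plasma. U3 (Snord3a) and the other listed RNAs without a row are not analysed here. The 6 Snord RNAs in common use as qPCR references were all in the table. Of the 5 tested, Snord68, Snord61, Snord96a (2.33 ± 0.66, edgeR adjusted p = 0.0119) and Snord95 (1.85 ± 0.63, edgeR adjusted p = 0.0384) were higher in EV, Snord70 was not called, and Snord72 had 16 counts in EV and 8 in plasma. Snord95 lost its call in 5 of the 14 fits that left out a mouse and under the RPM and the miRNA scaling (1.23 and 0.72, edgeR adjusted p = 0.114 and 0.236), and Snord96a under the miRNA scaling (1.28, edgeR adjusted p = 0.0638). Snord96a, like Snord68, passed the filter through EV alone. The 4 RNAs from Rpl13a introns, known from work on lipotoxic stress (Snord32a, Snord33, Snord34 and Snord35a), summed to a median of 0.766 RPM in EV and 0.502 RPM in plasma. Only Snord33 was tested (1.37 ± 0.72, edgeR adjusted p = 0.213), and 70.8% of its EV counts came from 12-month replicate 2. Of the guides for U6 snRNA, Snord8 (3.13 ± 0.78, edgeR adjusted p = 0.00444) was higher in EV and Snord67 (1.78 ± 0.66, edgeR adjusted p = 0.0625, and 1.54, adjusted p = 0.0407, with the mouse as a block) was not called. Both passed the filter through EV alone, 72.0% of Snord8's EV counts came from 12-month replicate 2, and without that mouse Snord8 could not be tested. The 5 rows with Snord symbols from the imprinted Snrpn-Ube3a locus held 32 counts in EV and 24 in plasma in total, and none was tested. Rows with Gm symbols that share Snord116 sequence were not counted here. Of the Gas5 intron RNAs 3 of 10 symbols were in the table and Snord80 alone was tested, of the Snhg1 intron RNAs 1 of 8 (Snord22), and those of the imprinted Dlk1-Dio3 locus are not analysed here.

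The other snoRNA classes were tested in the same fit. Of 29 Snora rows tested, 22 were higher in EV and 0 in plasma (median log2 difference 2.39), and of 22 scaRNA rows 11 and 0 (median 1.07). Of the 235 other snoRNA rows tested, 76 were higher in EV and 18 in plasma (median 0.88). Within the total of snoRNA counts, the Snord share was 3.56% at the median in EV and 3.49% in plasma and was higher in EV in 6 of 14 mice. Of 129 rows of listed snoRNA host lncRNAs tested in the same fit 14 (10.9%) were higher in EV and 3 in plasma. Many of the 129 are rows of Rian and Meg3, which host no member analysed here. This share is therefore not that of the hosts of the members, which are given singly below. All 10 transcript rows of Snhg5, host of Snord50a and Snord50b, lay between -0.15 and 0.16 (log2) and 0 were called. None of these 10 transcripts was found in the annotation used, so whether their exons hold either snoRNA could not be checked. Of the 10 Snhg12 rows, 5 were higher in EV and 1 in plasma, and 3 of these transcripts hold Snord99 in an exon. Of the 5 Snhg6 rows (host of Snord87) 3 were higher in EV, with values from -0.20 to 1.51, of the 4 Gas5 rows (host of Snord80) 1 was higher in EV (1.11), and of the 4 Snhg1 rows (host of Snord22) 0 were called. Transcript rows of a host share reads, and the EV difference of a snoRNA was not tested against that of its host.

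Length and EV difference were compared across the tested members with an annotated length, 38 of them, or 36 with Snord50a and Snord50b and Snord14c and Snord14d each counted once. Spearman's rho between length and log2 difference was -0.495 over the 38, -0.468 over the 36, and -0.435 over the 32 of the 38 that could be tested without 12-month replicate 2. Members that passed the filter in EV alone had to be high there, and they were 6 of the 11 members under 75 nt, 4 of the 17 of 75 to 99 nt and 3 of the 8 of 100 nt or more. Over the 23 members that passed in plasma, each pair again counted once, rho was -0.489, and the medians of the 3 length classes were 1.85 (n = 5), 1.37 (n = 13) and 0.67 (n = 5). Base composition had almost no relation over the 38 (rho 0.00810 with GC content). The members of 100 nt or more were called in 3 of 8 cases. These 8 were Snord23 and Snord8, at 2.84 and 3.13, Snord67 at 1.78, and Snord15b, Snord15a, Snord17, Snord118 and Snord22, from 0.18 to 0.86. The length classes, the counting of pairs once and the restriction to members that passed in plasma were chosen after the values were seen, the points share libraries, and no p was computed. The tables give a count for each transcript and no read positions, so which stretch of a snoRNA was read is not known.

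**Figure D4:**
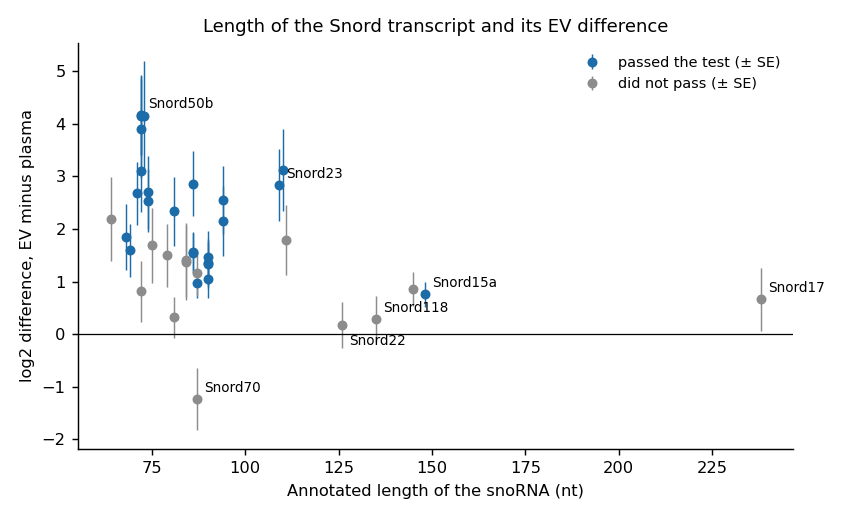
Log2 difference between EV and plasma (with SE) against the annotated length of the snoRNA in nt, for 38 tested members, blue where called. The longest members, Snord22, Snord118, Snord15a, Snord15b and Snord17, lie between 0.18 and 0.86, and none of the 12 members under 75 nt (Snord50a and Snord50b both plotted) lies below 0.81.

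With age, no Snord row passed edgeR's quasi-likelihood test in either fraction. In plasma 0 of 25 rows were called, against 0.0139% of 21632 rows (3 rows, all rising), and 4 of the 25 had an unadjusted p under 0.05, against 7.29% of all rows. In EV 0 of 38 were called, against 0% of 18570 rows, and 14 of the 38 had an unadjusted p under 0.05, against 5.80% of all rows. The 4 plasma rows include Snord14c and Snord14d, and the 14 EV rows include both rows of Snord85, each pair a single measurement. DESeq2 also called 0 Snord rows in both fractions. In simulated counts with a slope of 0.2 per month (log2), edgeR found 92% of the changed rows in plasma and 75% in EV. Those rows had a mean of at least 10 counts, which many Snord rows did not reach, so the 0 calls do not show unchanged levels. The median slope was 0.07 per month (log2) over the 25 plasma rows, against 0.0038 over all rows, and 0.18 per month over the 38 EV rows, all 38 of which had a positive slope, against a median of -0.0040 and 45.9% positive slopes over all rows. Of 29 Snora rows in EV 28 had a positive slope. Without 12-month replicate 2, 21 Snord rows passed the filter in plasma and 31 in EV. Their median slopes were 0.02 and 0.05, against -0.0015 and -0.0047 over all rows. The remaining rows of the 25 and the 38 passed only with that mouse and so had to be high in it. The numbers of positive slopes and of unadjusted p under 0.05 above include it. Summed Snord levels in EV were 43.8 ± 10.6 RPM at 2 months (SD, n = 3), 44.1 ± 32.9 at 6 months (n = 4), 44.6 ± 22.8 at 8 months (n = 3), 65.7 and 419 RPM in the 2 mice of 12 months, and 59.4 and 55.6 RPM at 18 months. In plasma they were 24.5 ± 6.97, 35.2 ± 6.60 and 31.6 ± 9.65 RPM at 2, 6 and 8 months, 34.5 and 93.4 RPM at 12 months, and 47.5 and 40.3 RPM at 18 months. At 12 and 18 months every plasma library was above all 3 libraries of 2 months. Library depth had little relation with age (Spearman's rho 0.115 in EV and 0.101 in plasma, n = 14 each).

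The Snord14 RNAs gave the smallest p in plasma. Snord14d held 1.10, 0.355 and 0.683 RPM in the 3 mice of 2 months, 1.70, 1.06, 1.42 and 0.878 RPM at 6 months, 0.707, 1.03 and 1.01 RPM at 8 months, 1.99 and 4.95 RPM at 12 months, and 2.99 and 2.17 RPM at 18 months. All 4 mice of 12 and 18 months lay above all 10 younger mice. The slope was 0.13 ± 0.04 per month (log2, SE; edgeR unadjusted p = 0.00493, adjusted p = 0.607). Pearson's r with age was 0.656 and Spearman's rho 0.677 (n = 14; permutation p = 0.0117 and 0.0094, adjusted over 21632 rows 0.716 and 0.837), and r was 0.666 without the 18-month mice and 0.847 without 12-month replicate 2. These values rest on 1 to 41 counts a library. Snord14a, encoded in Rps13 and not in Hspa8, had a slope of 0.13 ± 0.05 (log2, SE; edgeR adjusted p = 0.643) and an r of 0.705 (rho 0.645, permutation p = 0.00528 and 0.0151, adjusted 0.708 and 0.837), which was 0.507 without the 18-month mice.

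In EV, Snord22, Snord23 and Snord17 had the smallest p. Snord22 held 1.59, 0.325 and 0.470 RPM at 2 months, 0.559, 0.842, 1.52 and 0.781 RPM at 6 months, 1.01, 1.10 and 0.882 RPM at 8 months, 0.842 and 6.21 RPM at 12 months, and 3.90 and 2.16 RPM at 18 months. Both mice of 18 months lay above every mouse of 2 to 8 months, and 1 of the 2 mice of 12 months did not. The slope was 0.17 ± 0.05 per month (log2, SE; edgeR unadjusted p = 0.00415, adjusted p = 0.645), with r = 0.583 and rho = 0.652 (n = 14; permutation p = 0.0252 and 0.0137, both adjusted to 1), and r was 0.516 without the 18-month mice. Snord23, from an intron of Nop53, reached a rho of 0.775 (permutation p = 0.00164, adjusted 1) but an r of only 0.286 (permutation p = 0.341, adjusted 1), since 12-month replicate 2 stood at 15.0 RPM and no other EV library above 1.68 RPM; its r was 0.573 without the 18-month mice and 0.599 without 12-month replicate 2. Snord17 had an r of 0.292 and a rho of 0.470 (permutation p = 0.329 and 0.0936, both adjusted to 1), an r of 0.527 without the 18-month mice, and likewise 1 library far above the rest (14.8 RPM, the others up to 2.43 RPM).

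**Figure D5:**
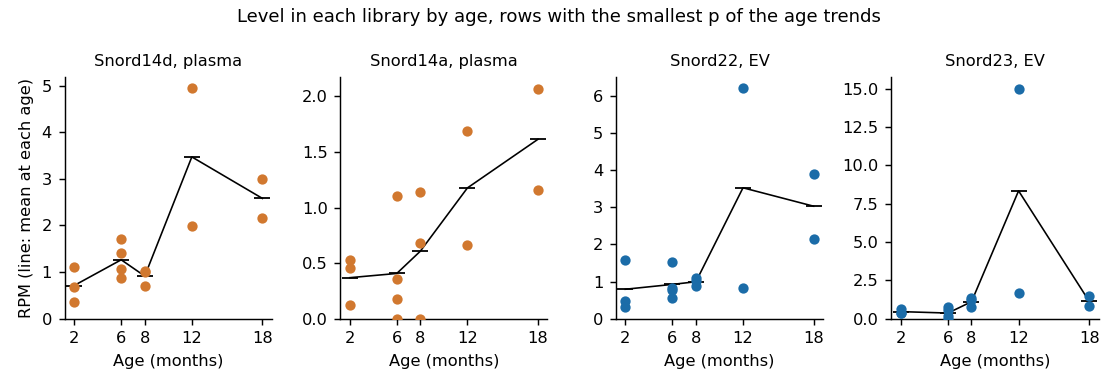
Level (RPM) against age in months for Snord14d and Snord14a in plasma (orange) and Snord22 and Snord23 in EV (blue), points for libraries and a line through the mean at each age. The single points at 4.95, 6.21 and 15.0 RPM at 12 months are replicate 2, and the 18-month mice of Snord14d and Snord22 lie above all mice of 2 to 8 months.

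By the rank measure the study used for ageing, Spearman's rho past 0.5 or -0.5, 4 of 25 Snord rows in plasma were over 0.5 (Snord14c, Snord14d, Snord14a and Snord83b), against 5.98% of all rows, and 0 were under -0.5, against 2.09%. Among these 4, Snord14c and Snord14d are a single measurement. In EV 6 of 38 were over 0.5 (Snord23, Snord22, Snord100, Snord8, Snord99 and Snord66), against 1.59% of all rows, and 0 were under -0.5, against 1.20%. The EV count was 3 of 31 without 12-month replicate 2. It was also 3 when 8-month replicate 1 was left out, 10 when 8-month replicate 2 was, 11 when 6-month replicate 4 was and 13 when 2-month replicate 3 was. No row was over the limit in both fractions. Whether the age trend differed between EV and plasma was tested by the interaction of age and fraction, and 0 of 40 Snord rows were called, against 0% of 22323 rows, with 0 Snord rows at an unadjusted p under 0.05 and 0 called by DESeq2. In simulated counts with a slope difference of 0.2 per month (log2), edgeR found 8.5% of the changed rows and DESeq2 29.5%. The changed rows had a mean of at least 10 counts. The spread in these simulated counts was estimated without a term for fraction and so holds differences between EV and plasma. These shares may therefore be too low for the fit that was run. With such low shares the 0 calls do not show that the slopes were alike. The smallest p belonged to Snord100 (0.26 ± 0.15 per month steeper in EV, log2, SE; edgeR unadjusted p = 0.0957, adjusted p = 1), Snord87 (0.08 ± 0.05) and Snord55 (0.21 ± 0.13).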

How the data were processed

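Small RNA libraries were made from the EV pellet and the EV-depleted plasma of each mouse. The deposited files are a table of estimated counts per RNA row, in which 46 miRNA rows were not whole, and a table of RPM made by the authors, a signal in which each library's counts had been divided by 1 number per library. The submitters' processing notes name mm10 and R 4.0.4; the aligner and the annotation were not given in the sources used here. Groups, and the pairing of libraries by mouse, were taken from the labels. The labels of 2-month replicates 2 and 3 share a code in plasma, and these were paired by replicate number.

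Counts were rounded (all Snord rows were whole) and rows reaching 1 RPM in over 10% of the EV or of the plasma libraries were kept, after the study's rule for expressed RNAs. EV and plasma, the age trend within each fraction (age in months as a number) and their interaction were tested with edgeR 4.0.16 (TMM, quasi-likelihood test, SE as the log2 difference over the square root of its F statistic, Benjamini-Hochberg adjustment over all rows tested, threshold 0.05) in R 4.3.3. Correlations used 100000 permutations in scipy 1.17.1. DESeq2 1.42.0, other scalings and filters, omitted mice and a block for the mouse were alternatives, and the fitting code was tested on simulated data. The labels pair libraries by mouse, and deviations of the 2 libraries of a mouse correlated at -0.07 to 0.38. The 0.38 is a single value shared by the 2 mice of 12 months. For 2-month replicates 1 and 2 and 6-month replicate 3, plasma correlated more with another mouse's EV library (0.08, 0.14 and 0.22) than with its own (-0.03, 0.04 and -0.07). The pairing is thus only partly borne out by the data. The fit with the block called 28 Snord rows, all higher in EV, against 2468 of 22323 rows higher in EV. No 2 libraries of a group agreed within sampling noise. The rows named are the 10 with the highest mean RPM, the 5 with the smallest p in each direction between fractions, the 3 with the smallest p in each age comparison, and the members of the first 3 lists of function (ribosomal RNA processing, lipotoxic stress, qPCR reference). Others were named after their values were seen. Host genes, positions and sequences came from GENCODE M21 by transcript ID. Members and lists were chosen with earlier results of these data known. Replicates are separate mice. Intervals and limits cover counting error only, since reads carried no molecular identifiers as far as the sources state.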

Additional observations from a re-analysis of the deposited data

Results flagged for a closer look

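In the 6-month groups, the only groups of 4 mice, 9 of 58 sets of values held a library whose gap to the others passed Dixon's limit. Chance passes about 1 in 20. In EV, replicate 4 was above the other 3 mice for Snord15a (4.24 RPM, the others 1.95 to 2.14), Snord80 (5.91 RPM, the others 0.279 to 1.15), Snord95 (0.893 RPM, the others 0.140 to 0.230) and Snord35a (0.558 RPM, the others 0 to 0.0765). In the same library Snord13 was at 0.112 RPM, a single read, with the other 3 at 0. In plasma, Snord15a stood at 6.81 RPM in replicate 1, the shallowest library, where the other 3 held 0.658 to 1.59 RPM. In plasma replicate 4, Snord99 (0.439 RPM) and Snord23 (0.219 RPM) were counted and the other 3 mice were at 0, and in plasma replicate 2 Snord13 was at 0.177 RPM with the other 3 at 0. Groups with 3 libraries at 0 pass this limit with any read. The 12-month groups hold 2 mice and were not screened in this way.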

How the results depend on the processing

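The number of Snord rows called between EV and plasma was 25, and 14 with miRNA scaling factors (13 higher in EV, 1 in plasma), 16 with the RPM scaling and 4 of the 6 rows left by a filter of at least 10 counts in at least 50% of libraries; the last tests fewer rows, and for the others the shift of all rows is given with the comparison. Leaving out a mouse gave 18 to 26 calls, with 18 rows called in every such fit, and the fits with the replicate block for the mouse (28, with 23 of the 25), DESeq2 (27), no filter (31 of 88) and no uncertain pairs (19) lay within 1.5 times. Over all rows, 2468 of 22323 were higher in EV with the block and 2549 of 22323 with DESeq2. It was 1674 of 22058 without the uncertain pairs and 1727 of 11208 with the filter of 10 counts. Leaving out a mouse gave 1886 to 2300. The block added calls for Snord15b (0.89), Snord55 (0.97), Snord14a (1.01), Snord37 (1.78) and Snord67 (1.54) and ended those of Snord88a and Snord88c (edgeR adjusted p = 0.142 and 0.115). Between fractions the log2 differences of Snord80 (-0.525 and -0.162), Snord22 (-0.496 and -0.275) and Snord118 (-0.612 and -0.283) turned below 0 with the miRNA and the RPM scaling, as did Snord17 (-0.214) with the miRNA scaling, and leaving out a mouse moved Snord118 between -0.192 (12-month replicate 2) and 0.557 (2-month replicate 1); none passed the test in any of these. Age trends and the interaction gave 0 Snord calls under every alternative run. Rows with rho past 0.5 in plasma numbered 4, and 8 (7 rising, 1 falling) with no filter on low values; in EV leaving out a mouse gave 3 to 13. The median log2 ratio of summed levels was 0.395 by RPM, 0.631 by share of all counts and -0.0409 by share of snoRNA counts, within the spread over mice. Depth limits all values: most Snord rows rest on a few reads a library, and 48 of 88 could not be tested.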
